A study of Mus musculus with 6 samples.

Results

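The genes described here encode the enzymes and transporters of glutathione, thioredoxin and NADPH redox metabolism. They were chosen by name and role, with earlier results of these data known. All 52 symbols matched an Ensembl identifier among the 41214 in the count files. The samples were epidermis of C57BL/6 mice at postnatal day 4, separated from trypsin-treated skin, with 3 libraries of ARPC4 ko and 3 of wild type (wt) by the genotype label. ARPC4 belongs to the Arp2/3 complex, the machine that starts new actin branches. The series title places the knockout in the epidermis and names a psoriasis-like disease with hyperactivation of the transcription factor Nrf2, so the comparison asked how enzymes that Nrf2 is known to control differed between the genotypes. The titles of the ko libraries carry "hom". The sources used here give neither the promoter of any Cre transgene, nor the deleted exons, nor whether each library is 1 animal. Replicates 1 and 2 of each group carry a date in their titles and replicate 3 does not.

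Glutathione is a tripeptide that cells make from cysteine, which many cells import as cystine, and that they use to reduce peroxides and to conjugate electrophiles. Oxidised glutathione and thioredoxin are both reduced again at the expense of NADPH, much of which comes from the pentose phosphate pathway and malic enzyme. In keratinocytes under electrophile or oxidant stress Nrf2 leaves its inhibitor Keap1 and, with a small Maf partner, binds antioxidant response elements near many of these genes. Its activity is set mainly at the level of protein stability, which RNA counts do not measure.

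The libraries held 17561294 to 22659511 counts in genes. Levels are given in CPM, read counts scaled to a fixed library size with factors from trimmed means of M values. Arpc4 itself had 67.5, 65.6 and 64.5 CPM in ko and 72.5, 82.5 and 73.1 CPM in wt (adjusted p = 0.469, log2 difference -0.21, SE 0.10), and reads of undeleted exons count toward it. Markers of suprabasal keratinocytes summed to 113974 to 201908 CPM in ko and 112465 to 189718 CPM in wt, the highest sum of all marker lists used. Basal markers summed to 3895, 5281 and 13297 CPM in ko and to 8499, 2351 and 11351 CPM in wt, a wide spread within each group. Fibroblast markers summed to 1144 to 2137 CPM in ko and 249 to 605 CPM in wt, with all 15 of 15 above 0 in log2 fold change. Endothelial markers summed to 16.99 to 30.8 CPM in ko and 6.22 to 6.62 CPM in wt, with 11 of 11 measured above 0. Sebaceous gland markers, led by Scd1, summed to 875 to 1188 CPM in ko and 1670 to 2043 CPM in wt, with 9 of 9 measured below 0. Melanocyte markers summed to 106 to 152 CPM in ko and 75.6 to 96.8 CPM in wt, with 10 of 10 above 0. Sums for macrophages with Langerhans cells (489 to 814 CPM in ko, 408 to 653 in wt), T cells, adipocytes, muscle and erythroid cells overlapped between the genotypes. Of the measured macrophage and Langerhans cell markers, however, 13 lay above 0 and 1 below. The counts above and below were 5 and 4 for T cells and 3 and 4 for adipocytes. For muscle they were 3 and 0, and for erythroid cells 2 and 4. The erythroid Hbb-y was the only marker at 0 in all libraries, and no marker passed the test. Their part in the results below was not tested, and in bulk tissue fewer cells of a type and less RNA per cell cannot be told apart.

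Of the 52 members 47 had enough counts to be tested, and 0 passed over all genes in either direction (edgeR quasi-likelihood test, Benjamini-Hochberg adjusted p between 0.0798 and 0.991). Over all 13704 genes tested 0.219% were called higher and 0% lower in ko. Before adjustment, p was under 0.05 for 8 members higher in ko (17%, against 7.98% of all genes) and 5 lower (10.6%, against 5.25%). DESeq2 called 3 members higher and 3 lower, with 2.79 and 1.42% of its tested genes called in those directions. The ko libraries lay wholly above the wt libraries in 8 tested members (17%, against 11.3% of all genes) and wholly below in 9 (19.1%, against 8.03%). Log2 fold changes were above 0 in 15 members and below 0 in 32 (31.9 and 68.1%, against 53.1 and 46.9% of all genes). The members' median was -0.25, against 0.02 for all genes tested.

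With the title date as a covariate, which compares the genotypes within each kind of title, 7 of the 47 members passed (edgeR, Benjamini-Hochberg). Slc7a11, Akr1b8 and Cbr3 rose (6.38%, against 3.2% of all genes) and Mgst1, Gstm5, Osgin1 and Cat fell (8.51%, against 1.98%). Among the 4 dated libraries alone 0 members passed, while 1.16% of genes were called higher and 0.485% lower, and unadjusted p was under 0.05 for 7 members higher and 12 lower (8.65 and 7.55% of all genes). The undated pair, with 1 library a group, gives values but no test.

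**Figure D1:**
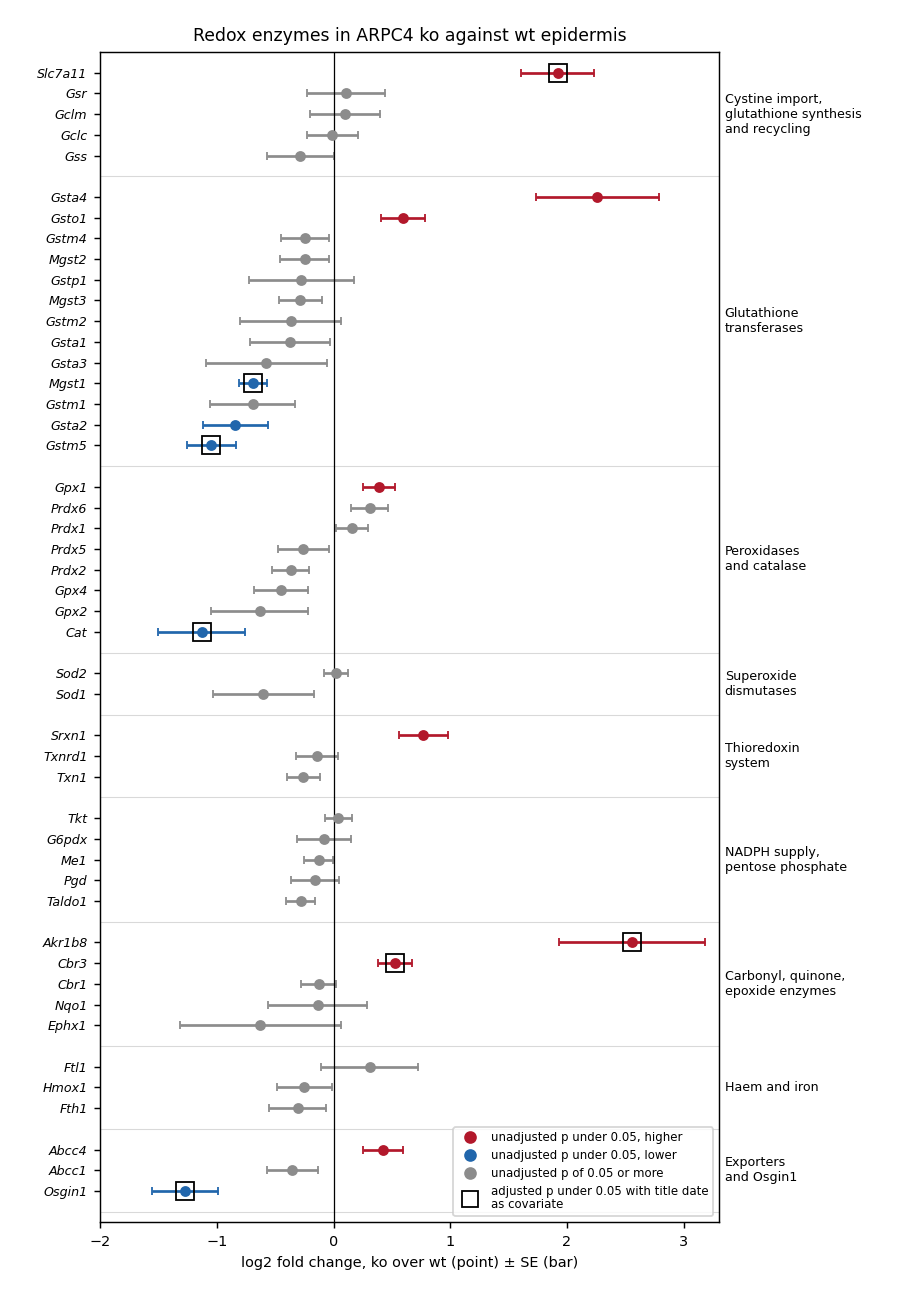
Log2 fold changes, ko over wt, of the 47 members tested (points) with their SE (bars), by class of enzyme; colour marks an unadjusted p under 0.05 and an open square an adjusted p under 0.05 with the title date as a covariate. Slc7a11, Gsta4 and Akr1b8 lie near or above 2, Cat, Gstm5 and Osgin1 lie below -1, and most others lie between -0.7 and 0.4.

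The promoters of these genes were searched for the core letters of the antioxidant response element, TGACNNNGC, on either strand, in RefSeq windows of GRCm38.p6 from 250 bases before to 50 after a start. Of the 46 members with a RefSeq window, 12 held the letters in at least 1 window (26.1%), against 14% of all 27025 genes with a window and 14.8% of the protein-coding ones. Gclc, Gsr, Gsta4, Prdx6, Hmox1 and Abcc1 had no window and were not searched. The windows of Slc7a11, Akr1b8 and Cbr3 did not hold these letters, nor did those of Cat, Osgin1 and Nqo1, while 1 of 2 windows of Mgst1 and the only window of Gstm5 did. The only window of Srxn1 and 2 of 2 windows of Abcc4 held them too, and the ko libraries of these genes lay wholly above wt. A match is only a match of letters, and elements outside the windows were not searched. The matches in Mgst1 and Gstm5, which fell with the title date as a covariate, are shown with those of a synthesis subunit, a peroxiredoxin and an NADPH-forming enzyme whose ko and wt libraries overlapped. Each is written on the gene's strand with the matched letters in capitals. Distances are counted from RefSeq starts. The Mgst1 and G6pdx matches lie inside the gene spans of GENCODE M21, from which the gene coordinates given here were taken.
Mgst1 (chr6:138140461-138140489, plus strand, match from 56 bases before the start, read on the opposite strand): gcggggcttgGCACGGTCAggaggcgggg
Gstm5 (chr3:107895802-107895830, plus strand, from 42 bases before): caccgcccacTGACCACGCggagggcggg
Gclm (chr3:122245413-122245441, plus strand, from 134 bases before, opposite strand): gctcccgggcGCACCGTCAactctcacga
Prdx1 (chr4:116685456-116685484, plus strand, from 133 bases before, opposite strand): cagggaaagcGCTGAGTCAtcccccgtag
G6pdx (chrX:74428919-74428947, minus strand, from 57 bases before, opposite strand): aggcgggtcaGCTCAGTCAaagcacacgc

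Of the 5 genes of cystine import and glutathione synthesis, the importer passed the test with the title date as a covariate and the 4 enzymes did not. Slc7a11 (ENSMUSG00000027737, chromosome 3, 49892526 to 50443614, minus strand, mm10) encodes the light chain of the exchanger that brings in cystine for glutamate. It stood at 14.1, 28.0 and 14.6 CPM in ko replicates 1 to 3, against 5.77, 4.73 and 4.44 CPM in wt replicates 1 to 3. Every ko library was above every wt library, and ko replicate 2 was the highest. The means were 18.9 ± 7.92 CPM in ko and 4.98 ± 0.696 CPM in wt (SD, n = 3 each), a 3.78-fold difference (log2 fold change 1.92, SE 0.31, 95% interval 1.17 to 2.66). Its adjusted p was 0.0798 with edgeR over all genes, 0.0203 with the title date as a covariate, 0.064 among the dated libraries alone and 6.28e-06 with DESeq2. The heavy chain Slc3a2, which carries this and other amino acid transporters to the membrane, stood at 97.3 ± 16.7 CPM in ko and 80.5 ± 18.2 CPM in wt, with overlapping libraries (0.27, SE 0.20, adjusted p = 0.65).

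The ligase that joins glutamate to cysteine, the first step of synthesis, overlapped between the genotypes in both subunits. The catalytic subunit Gclc stood at 20.1, 21.6 and 28.7 CPM in ko and at 22.0, 19.04 and 29.97 CPM in wt (log2 fold change -0.01, SE 0.22, 95% interval -0.53 to 0.51). The modifier subunit Gclm stood at 11.6, 13.2 and 22.8 CPM in ko and at 12.7, 12.8 and 18.95 CPM in wt (0.10, SE 0.30, 95% interval -0.62 to 0.81). For each subunit the undated replicate 3 was the highest of its group in both genotypes. Glutathione synthetase, Gss, which adds glycine, averaged 6.89 ± 1.76 CPM in ko and 8.39 ± 2.46 CPM in wt (-0.29, SE 0.29). Glutathione reductase, Gsr, averaged 16.03 ± 4.34 CPM in ko and 14.9 ± 6.09 CPM in wt (0.11, SE 0.33), and neither passed the test (adjusted p of 0.768 and 0.935).

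Glutathione transferases conjugate glutathione to electrophiles, and their members had differences of both signs. Of 15 members 13 were tested and 0 passed with edgeR over all genes. Unadjusted p was under 0.05 for 2 higher (15.4%, against 7.98% of all genes) and 3 lower (23.1%, against 5.25%). The ko libraries lay wholly above wt in 2 (15.4%, against 11.3%) and wholly below in 4 (30.8%, against 8.03%). Log2 fold changes were below 0 in 11 of the 13 (84.6%, against 46.9%), with a median of -0.37. The highest was Gsta4 (ENSMUSG00000032348, chromosome 9, 78182774 to 78209349, plus strand), an alpha-class enzyme known for conjugating 4-hydroxynonenal, an aldehyde of lipid peroxidation. It stood at 5.32, 23.1 and 12.6 CPM in ko replicates 1 to 3, against 3.08, 3.19 and 2.27 CPM in wt. The ko values spread widely among themselves yet all lay above wt (log2 fold change 2.26, SE 0.53, adjusted p = 0.14; 0.0741 with the title date as a covariate). DESeq2 called it (adjusted p = 0.00101).

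The other alpha-class members had log2 fold changes below 0. Gsta2 stood at 9.89, 8.28 and 5.45 CPM in ko and at 11.5, 18.2 and 12.7 CPM in wt, with every ko library below wt (-0.84, SE 0.28, adjusted p = 0.27). Gsta1 averaged 27.7 ± 11.6 CPM in ko and 35.9 ± 8.41 CPM in wt (-0.37, SE 0.34, adjusted p = 0.741), and Gsta3 averaged 0.515 CPM in ko and 0.777 CPM in wt. Of the 51-base stretches of annotated transcripts, 90.3% of those of Gsta1 also occur in another gene, mostly Gm3776, and 49.0% of those of Gsta2, mostly in Gsta1, while no stretch of Gsta4 does. The authors' counts leave out reads that align to several places, so the Gsta1 and Gsta2 levels are uncertain.

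Gstm5 (ENSMUSG00000004032, chromosome 3, 107895821 to 107898686, plus strand) had the highest level per kilobase of exon of the 5 mu-class members in both genotypes. It stood at 44.3, 31.0 and 30.0 CPM in ko replicates 1 to 3, against 67.8, 88.3 and 61.8 CPM in wt. The ko values were 2.07-fold lower on average and did not overlap wt (log2 fold change -1.05, SE 0.21). Its adjusted p was 0.101 with edgeR, 0.0221 with the title date as a covariate and 0.00148 with DESeq2. Its neighbours Gstm1, Gstm2 and Gstm4 had log2 fold changes of -0.69, -0.37 and -0.24 and did not pass (adjusted p of 0.494, 0.81 and 0.711). Of Gstm1 18.5% of stretches are shared with other genes, and of Gstm5 9.36% with 4933431E20Rik on the opposite strand.

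Mgst1 (ENSMUSG00000008540, chromosome 6, 138140316 to 138156755, plus strand) encodes a transferase and peroxidase of the endoplasmic reticulum and outer mitochondrial membrane. It stood at 28.5, 29.9 and 33.8 CPM in ko replicates 1 to 3, against 45.5, 49.1 and 54.1 CPM in wt. Replicates varied little, and the highest ko library was far below the lowest wt library (log2 fold change -0.69, SE 0.12, 95% interval -0.98 to -0.40). Its adjusted p was 0.0852 with edgeR, 0.0141 with the title date as a covariate, 0.0564 among the dated libraries and 0.00104 with DESeq2. Mgst2 and Mgst3, the related membrane enzymes, had -0.25 (SE 0.21) and -0.28 (SE 0.18), and Mgst3 was 30.4 CPM in the undated ko library against 29.0 CPM in the undated wt library.

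Gsto1, an omega-class enzyme with dehydroascorbate reductase activity, had the highest level per kilobase of the 15 transferases. It made up 42.1% of the summed CPM per kilobase of the class in ko and 25.4% in wt. Its values were 198, 271 and 178 CPM in ko and 142, 158 and 128 CPM in wt, with every ko library above wt (log2 fold change 0.60, SE 0.19, adjusted p = 0.248). It did not pass with the title date as a covariate either (adjusted p = 0.0556). The pi-class Gstp1 stood at only 3.39 ± 1.69 CPM in ko and 4.09 ± 1.78 CPM in wt, and 33.5% of its stretches are shared, mostly with Gstp2.

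**Figure D2:**
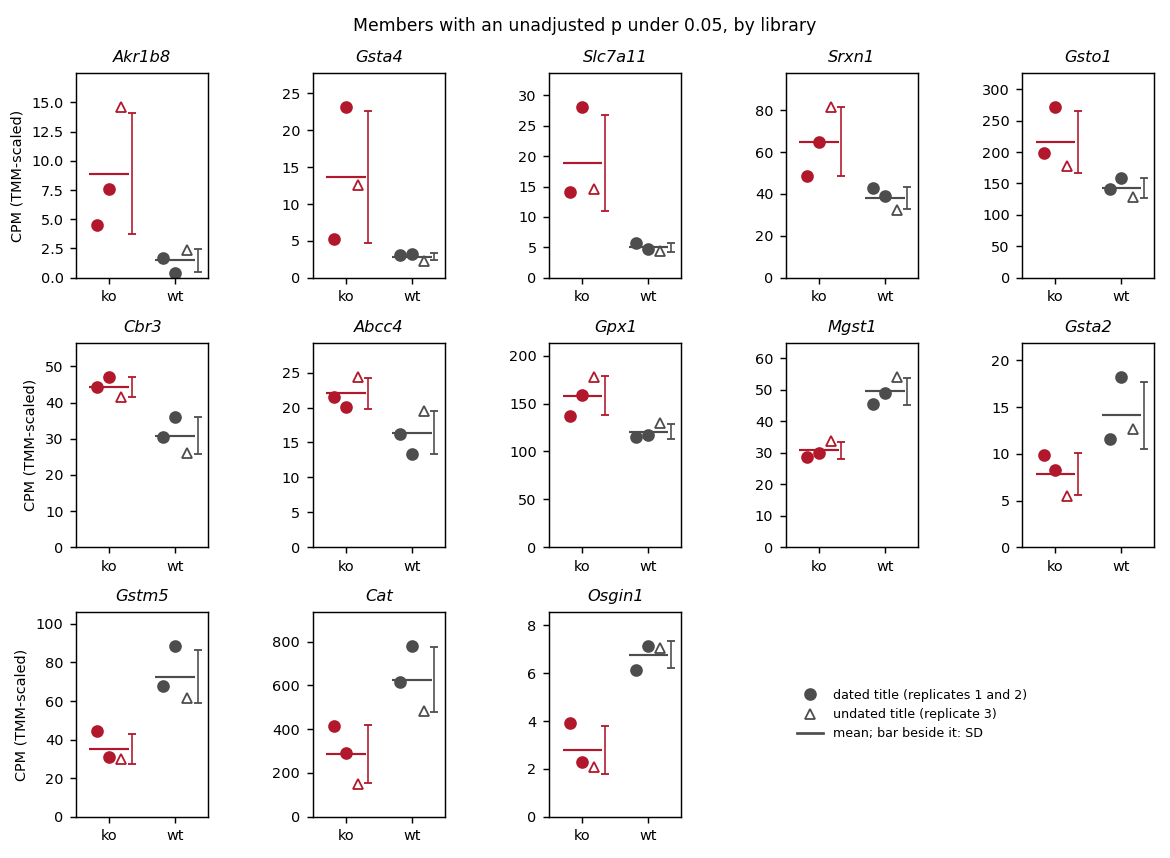
CPM in each library of the 13 members with an unadjusted p under 0.05 (filled circles, dated titles; open triangles, undated titles; lines, means; bars, SD; each panel has its own axis from 0). In every panel the ko libraries, on the left, lie wholly above or wholly below the wt libraries. The members were picked by p from these same libraries, so this separation is no further support.

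Peroxide removal rests on catalase, the glutathione peroxidases and the peroxiredoxins, and catalase had the largest log2 fold change of this class. Cat (ENSMUSG00000027187, chromosome 2, 103453849 to 103485160, minus strand) encodes the haem enzyme that splits hydrogen peroxide. It stood at 416, 291 and 152 CPM in ko replicates 1 to 3, against 617, 778 and 483 CPM in wt. The ko and wt libraries did not overlap, and in both genotypes the undated library was the lowest. The means were 286 ± 132 CPM in ko and 626 ± 148 CPM in wt (SD, n = 3 each), 2.19-fold lower in ko (log2 difference -1.13, SE 0.37, adjusted p = 0.269). With the title date as a covariate the difference was -1.21 (SE 0.21, adjusted p = 0.0297). Sebaceous gland markers, whose values stand above, were lower in the same libraries (875 to 1188 CPM in ko, 1670 to 2043 CPM in wt), and their part in the catalase difference was not tested. Per kilobase of exon Cat had the highest mean level of all 52 members in wt, at 240 CPM per kilobase, with Prdx5 close behind at 231. In ko Cat stood at 109, below Prdx5 (193) and Txn1 (141) and close to Gpx1 (110).

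Gpx1, the selenoenzyme that reduces hydrogen peroxide with glutathione in the cytosol, lay higher in every ko library, at 137, 159 and 178 CPM against 116, 117 and 129 CPM in wt (0.39, SE 0.14, adjusted p = 0.29; 0.066 with the title date as a covariate). Gpx4, which reduces lipid peroxides in membranes, stood at 31.5, 27.0 and 49.7 CPM in ko and at 49.1, 44.9 and 53.8 CPM in wt. Both dated ko libraries lay below wt and the undated ko library lay among them (-0.45, SE 0.23, adjusted p = 0.483). Of its stretches 34.5% occur in other genes, mostly a pseudogene. Gpx2, a peroxidase of epithelia, averaged 1.87 CPM in ko and 2.92 CPM in wt, with overlapping libraries. Gpx3, the secreted form, had 6, 6 and 6 counts in ko and 4, 2 and 2 counts in wt, too few to be tested.

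Among the peroxiredoxins, which reduce peroxides through a cysteine that thioredoxin or glutathione restores, 0 of 4 passed. Prdx2, of the cytosol, stood at 277, 267 and 236 CPM in ko and at 316, 396 and 294 CPM in wt, without overlap (-0.37, SE 0.16, adjusted p = 0.395). Prdx5, of mitochondria and peroxisomes, had -0.26 (SE 0.22), Prdx1 0.16 (SE 0.14) and Prdx6 0.31 (SE 0.16). Prdx5 shares 15.5% of its stretches with Trmt112 on the opposite strand. Of the Prdx2 stretches 11.9% occur in other genes, and Prdx2 exons overlap those of Rnaseh2a and Junb on the opposite strand. The sources used here do not say whether counting used strand. The summed level of the 8 peroxidases and peroxiredoxins with catalase was 623 ± 67.2 CPM per kilobase in ko and 785 ± 114 CPM per kilobase in wt (SD, n = 3 each). Superoxide dismutases, which feed hydrogen peroxide into this system, overlapped between the genotypes. The mitochondrial Sod2 averaged 50.14 ± 1.499 CPM in ko and 49.4 ± 3.24 CPM in wt (0.02, SE 0.10), and the cytosolic Sod1 stood at 9.44 ± 3.71 CPM in ko and 14.3 ± 7.42 CPM in wt (-0.60, SE 0.43).

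The thioredoxin system had 3 members, of which 0 passed. Srxn1 (ENSMUSG00000032802, chromosome 2, 152105516 to 152111376, plus strand) encodes sulfiredoxin, which restores overoxidised peroxiredoxins. It stood at 48.5, 64.8 and 81.3 CPM in ko replicates 1 to 3, against 42.6, 39.1 and 32.4 CPM in wt. All ko libraries lay above wt, and the gap was widest between the undated libraries (log2 fold change 0.77, SE 0.21, adjusted p = 0.184). It did not pass with the title date as a covariate (adjusted p = 0.0862), and among the dated libraries alone it was 0.44 (adjusted p = 0.262). Thioredoxin reductase, Txnrd1, a common readout of Nrf2, stood at 326, 303 and 264 CPM in ko and at 333, 388 and 264 CPM in wt. The libraries overlapped (-0.14, SE 0.18, 95% interval -0.56 to 0.28). Thioredoxin itself, Txn1, stood at 145, 140 and 160 CPM in ko and at 166, 205 and 160 CPM in wt. The highest ko library and the lowest wt library, both undated, were nearly equal (-0.26, SE 0.14, adjusted p = 0.511).

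Of the 5 NADPH-supplying and pentose phosphate enzymes 0 passed, and log2 fold changes lay between -0.28 and 0.04. Glucose-6-phosphate dehydrogenase, G6pdx, which commits glucose to the pathway, averaged 161 ± 31.8 CPM in ko and 170 ± 44.8 CPM in wt (-0.08, SE 0.23). Phosphogluconate dehydrogenase, Pgd, had -0.16 (SE 0.21) and malic enzyme, Me1, -0.13 (SE 0.13). In the non-oxidative branch transketolase, Tkt, averaged 209.9 ± 9.62 CPM in ko and 203.9 ± 9.11 CPM in wt (0.04, SE 0.11, 95% interval -0.22 to 0.31). Transaldolase, Taldo1, did not overlap: its ko libraries, at 95.6, 94.4 and 87.1 CPM, lay below its wt libraries, at 103, 127 and 107 CPM (-0.28, SE 0.12, adjusted p = 0.402). Of the transcript stretches of Me1 27.9% and of G6pdx 16.6% are shared with other genes, for G6pdx mostly with Ikbkg on the opposite strand.

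Enzymes that reduce carbonyls and quinones held the highest log2 fold change of the 47 members tested. Akr1b8 (ENSMUSG00000029762, chromosome 6, 34354119 to 34368463, plus strand) encodes an aldo-keto reductase of lipid aldehydes. It stood at 4.52, 7.63 and 14.6 CPM in ko replicates 1 to 3, against 1.67, 0.425 and 2.36 CPM in wt. Its counts were 91, 129 and 278 in ko and 38, 8 and 52 in wt. The means differed 5.87-fold (log2 fold change 2.55, SE 0.63, 95% interval 1.07 to 4.04), with an adjusted p of 0.155 with edgeR, 0.0234 with the title date as a covariate and 0.00234 with DESeq2. In both genotypes the undated library was the highest.

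Cbr3 (ENSMUSG00000022947, chromosome 16, 93683215 to 93690990, plus strand) encodes a carbonyl reductase. It stood at 44.4, 47.1 and 41.4 CPM in ko, against 30.4, 36.1 and 26.0 CPM in wt, with no overlap (0.52, SE 0.15, adjusted p = 0.189; 0.0442 with the title date as a covariate). Its neighbour and relative Cbr1 averaged 17.9 ± 1.81 CPM in ko and 19.5 ± 2.71 CPM in wt (-0.13, SE 0.15). Nqo1, the quinone reductase most often used as a readout of Nrf2, was low, at 1.39, 3.73 and 3.99 CPM in ko and 2.86, 2.71 and 4.35 CPM in wt. The libraries overlapped, and its log2 fold change of -0.14 (SE 0.42) had a wide 95% interval of -1.15 to 0.87. The epoxide hydrolase Ephx1 spread widely within both groups, at 4.72, 5.03 and 16.05 CPM in ko and 12.5, 4.31 and 23.03 CPM in wt (-0.63, SE 0.69). Akr1c13 and the aldehyde oxidase Aox1 had 2 to 12 counts per library and were not tested, like the transferases Gstm3 (2 to 9 counts) and Gstt1 (0 to 4).

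Haem and iron handling limits the oxidants that free iron makes. Haem oxygenase, Hmox1, stood at 182, 202 and 139 CPM in ko and at 213, 259 and 150 CPM in wt, overlapping (-0.25, SE 0.24, 95% interval -0.81 to 0.31). Ferritin heavy chain, Fth1, averaged 109.5 ± 28.0 CPM in ko and 136 ± 35.4 CPM in wt (-0.31, SE 0.25), and light chain, Ftl1, 18.2 ± 5.78 CPM in ko and 14.7 ± 7.38 CPM in wt (0.31, SE 0.42). Of the Ftl1 stretches 58.2% occur in other genes.

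Osgin1 and the exporters of conjugates complete the set. Osgin1 (ENSMUSG00000074063, chromosome 8, 119434124 to 119446256, plus strand) encodes a growth inhibitor induced by oxidants. It stood at 3.93, 2.31 and 2.10 CPM in ko, against 6.12, 7.13 and 7.07 CPM in wt. No libraries overlapped (log2 fold change -1.28, SE 0.28), and its adjusted p was 0.127 with edgeR, 0.0442 with the title date as a covariate and 0.00259 with DESeq2. The exporter Abcc4 lay higher in every ko library, at 21.5, 20.1 and 24.4 CPM against 16.2, 13.4 and 19.5 CPM in wt (0.42, SE 0.17, adjusted p = 0.358). Abcc1, which exports glutathione conjugates, averaged 276 ± 53.8 CPM in ko and 352 ± 74.1 CPM in wt, with overlap (-0.35, SE 0.22).

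**Figure D3:**
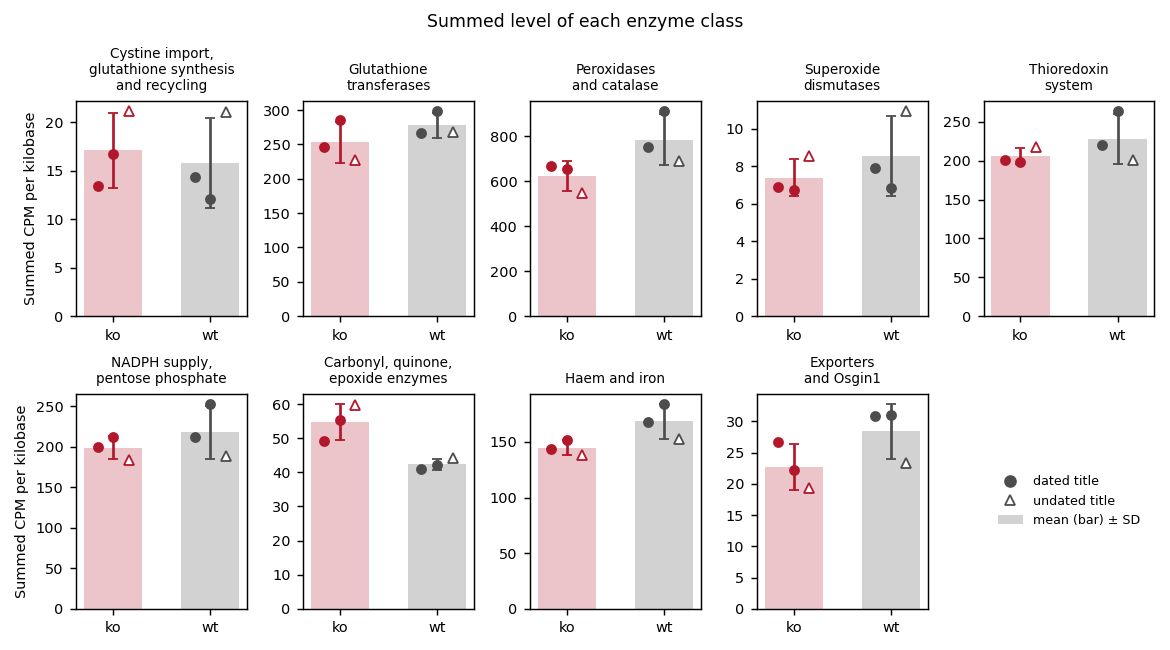
Summed CPM per kilobase of exon of each enzyme class, by library (circles, dated titles; triangles, undated titles; bars, mean and SD of 3 libraries; ko on the left of wt, axes from 0). The sum lies higher in every ko library for the carbonyl class and lower for the peroxidase and haem and iron classes. Each of these 3 overlaps without 1 member (Cbr3, Cat or Hmox1), and Hmox1 by itself overlaps as well.

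By class, summed levels per kilobase overlapped between the genotypes in 6 of 9 classes. The carbonyl, quinone and epoxide enzymes summed to 49.2, 55.2 and 59.9 CPM per kilobase in ko and to 40.9, 42.2 and 44.1 CPM per kilobase in wt, without overlap. Cbr3 made up 64.5% of that sum in ko and 58.0% in wt, and without it the sums overlapped. The peroxidases and catalase summed to 668, 655 and 545 in ko and to 752, 912 and 691 in wt. Cat made up 17.6% of that sum in ko and 30.5% in wt, and without it the sums of 509, 543 and 487 in ko and 516, 614 and 506 in wt overlapped. The haem and iron genes summed to 144, 152 and 138 in ko and to 168, 184 and 153 in wt. These too overlapped without Hmox1, which made up 68.8% of the sum in ko and 70.3% in wt. Unlike Cbr3 and Cat, Hmox1 by itself also overlapped between the genotypes, as did Fth1 and Ftl1. Leaving out these members was chosen after seeing the data. Transferases summed to 253 ± 29.8 in ko and 278 ± 18.1 in wt, and the NADPH enzymes to 199 ± 14.4 in ko and 217 ± 32.9 in wt (SD, n = 3 each). These sums use merged exon lengths of GENCODE M21, which overstate the transcript where annotated exons are rarely used, so they are descriptions and were not tested.

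Within each genotype most members followed the kind of title. In 20 of 47 members the undated replicate 3 was the highest library of its group in both genotypes, and in 16 it was the lowest in both (42.6 and 34%, against 28.4 and 28.8% of all genes tested). The first set held Gclc, Gclm, Gss, Gsr, Nqo1, Ephx1, Sod1, Gpx4, Fth1 and Akr1b8, among others. The second held Cat, Hmox1, Txnrd1, G6pdx, Pgd, Me1, Prdx5 and Abcc1, among others. Among the 3 libraries of each genotype the undated one also had the highest sum of basal markers and the lowest sum of suprabasal markers, and the part of layer composition was not tested. In 10 members, including Gclc, Gclm, Gsr, Txnrd1, G6pdx, Me1 and Tkt, the sign of the difference between genotypes was opposite in the undated pair and in the mean of the dated pairs. None of these 10 passed under any setting tried.

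**Figure D4:**
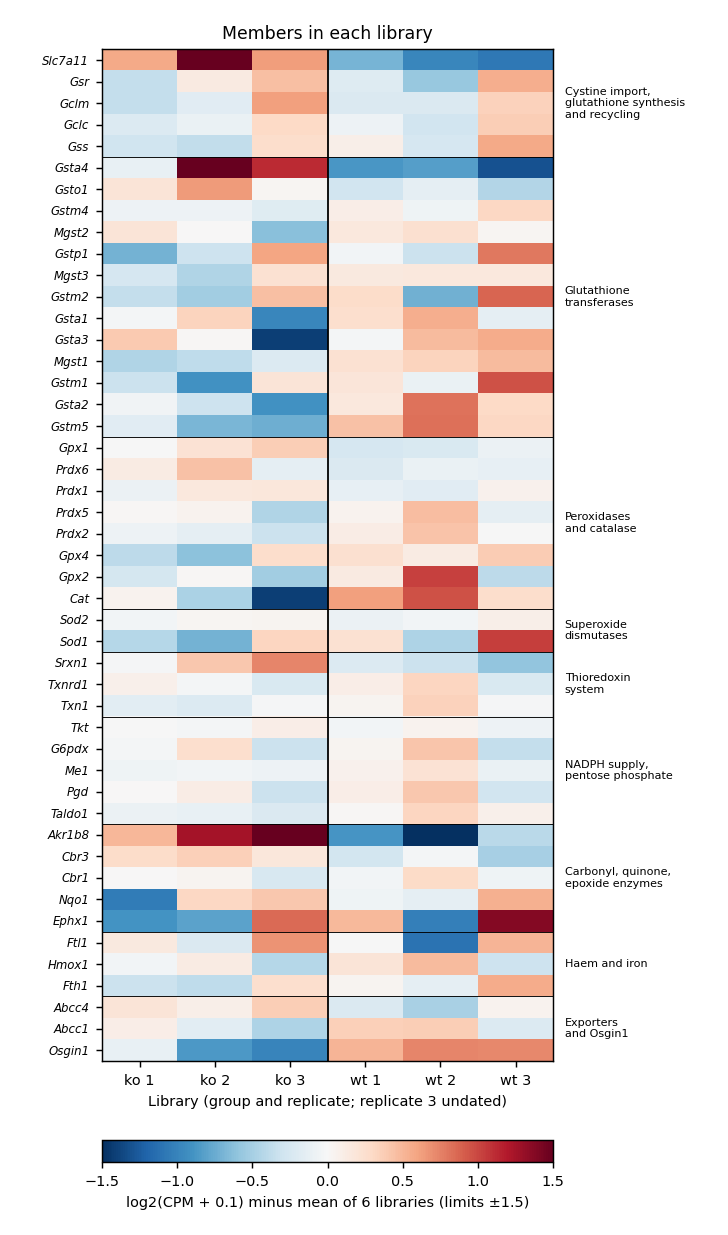
Level of the 47 members tested in each library, as log2(CPM + 0.1) minus the member's mean over the 6 libraries, by class (colours end at ±1.5). Slc7a11, Gsta4, Srxn1 and Akr1b8 are higher in ko and Gstm5, Mgst1, Cat and Osgin1 lower, while Ephx1, Sod1 and Gstm2 are highest in replicate 3 of both genotypes.

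Other genes of the same pathways, on 6 lists without any member, gave 0 called in either direction of 113 tested of 127 listed (edgeR over all genes, against 0.219 and 0% of all genes). Without adjustment, p was under 0.05 for 10 higher (8.85%, against 7.98% of all genes) and 18 lower (15.9%, against 5.25%). Their median log2 fold change was -0.04. With the title date as a covariate 3 rose (2.65%, against 3.2% of all genes) and 5 fell (4.42%, against 1.98%). The 3 were the prostaglandin E synthase Ptges, the amino acid transporter Slc7a5, which shares the heavy chain of Slc7a11, and the retinaldehyde dehydrogenase Aldh1a3. The 5 were Idh1, Aldh2, Aldh3a2, Aldh1a7 and Sod3, of which the last 3 were named after their values were seen.

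Among further glutathione transferases, listed together with Gdap1, Clic1, Ptges, Ltc4s and Alox5ap, 11 of 17 were tested. The median of 0.21 was the value of Clic1. Of the Gst genes tested, log2 fold changes of Gstm6, Gstp3 and Gstcd were positive and those of Gstm7, Gstt3, Gstk1 and Gstz1 negative. Ptges, of the membrane-bound family that includes Mgst1, stood at 175, 211 and 226 CPM in ko and at 103, 104 and 118 CPM in wt (0.92, SE 0.14, adjusted p = 0.0688; 0.00911 with the title date). Gstm7 had -1.04 (SE 0.28) and Gstk1, of mitochondria and peroxisomes, -0.50 (SE 0.14), both without overlap. Of 22 tested genes of glutathione turnover and amino acid transport (median -0.04), Slc7a5 stood at 69.3 ± 15.7 CPM in ko and 44.3 ± 3.58 CPM in wt (0.65, SE 0.18, adjusted p = 0.184; 0.0424 with the title date). The dipeptidase Dpep1 had 1.05 (SE 0.29) and Cth, which makes cysteine from cystathionine, -0.95 (SE 0.31).

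Of 11 other peroxidases, dismutases and sulfoxide reductases (median -0.20), the methionine sulfoxide reductases Msrb1 and Msrb3 had -0.55 (SE 0.13) and -0.75 (SE 0.19). Gpx7 had 1.21 (SE 0.35) at low levels, with means of 0.885 CPM in ko and 0.375 CPM in wt (edgeR adjusted p = 0.206). Other thioredoxins and glutaredoxins were listed together with Txnip and the sestrins Sesn1, Sesn2 and Sesn3 (17 tested, median -0.04). Of these, nucleoredoxin, Nxn, had -0.41 (SE 0.13), Sesn1 -0.63 (SE 0.20) and Glrx5 -0.32 (SE 0.13). Of 19 other NADPH and pentose phosphate enzymes (median -0.01), the cytosolic isocitrate dehydrogenase Idh1 stood at 43.4, 42.0 and 52.7 CPM in ko and at 63.0, 61.9 and 74.0 CPM in wt (-0.53, SE 0.14, adjusted p = 0.168; 0.0226 with the title date). Rpia and Shpk, of the pentose phosphate pathway, had -0.41 (SE 0.13) and -0.90 (SE 0.31). Other carbonyl, quinone and epoxide genes were listed together with Blvra, Blvrb and the iron genes Tfrc and Slc40a1 (33 tested, median -0.02). Of these, Aldh1a3 stood at 33.3, 48.3 and 98.4 CPM in ko and at 4.80, 8.30 and 4.90 CPM in wt (3.33, SE 0.46, adjusted p = 0.063; 0.0219 with the title date). Aldh1a1 had -1.67 (SE 0.39) at under 2 CPM, and the mitochondrial Aldh2 stood at 102.4 ± 8.21 CPM in ko and 141 ± 2.21 CPM in wt (-0.46, SE 0.11, adjusted p = 0.15; 0.0434 with the title date).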

How the data were processed

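RNA was sequenced from 3 ARPC4 ko and 3 wt epidermis samples with the TruSeq Stranded mRNA kit as single-end reads of 51 bp, per the labels' protocols. The authors deposited unnormalized read counts per Ensembl gene. Alignment and counting used TopHat2 2.0.12, Bowtie 1.1 and HTSeq with build mm10, per the submitters' processing notes. The sources used here do not give the strand option or annotation release. Reads with more than 1 alignment made up 32.4 to 40.9% of reads listed, ambiguous reads 0.38 to 0.499% and reads outside genes 0.341 to 0.377%, and none of these entered library sizes or tests.

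Genes were named from the reference table (40254 of 41214 identifiers), with coordinates and exon lengths from GENCODE M21 on GRCm38, the assembly of mm10. Genotypes were compared with edgeR 4.0.16 (R 4.3.3) on the whole table (filterByExpr, TMM scaling, robust glmQLFit, glmQLFTest, group as the only factor, Benjamini-Hochberg threshold 0.05). Fold changes are ko over wt. Each SE is the absolute log2 fold change divided by the root of F. The alternatives were other scalings, no filter, DESeq2 1.42.0, limma-voom (limma 3.58.1), the older quasi-likelihood fit, a replicate block, the title date as a covariate, the dated libraries alone and leaving out each library. The edgeR fit with group alone, DESeq2 and limma-voom were checked on simulated counts that held no effect of title. The fit with the title date as a covariate was not checked in that way. Shared sequence is the share of 51-base stretches of a gene's annotated transcripts found, on either strand, in transcripts of another gene.

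Replicates differed by more than counting noise (chi-square 24.4 to 105.5 for each degree of freedom), and each counted as 1 sample. The labels do not call them separate animals, and p-values then reflect only the spread among these samples, which may be technical. Members and lists were chosen with earlier results of these data known. Values in every library are given for members with an unadjusted p under 0.05, called by DESeq2 or with the title date, or at 500 CPM or more, for Nqo1, Hmox1, Gclc, Gclm and Txnrd1, and, chosen after their values were seen, for some others. Up to 3 genes of each further list, those with the smallest p, are named.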

Additional observations from a re-analysis of the deposited data

How the results depend on the processing

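With edgeR and group as the only factor 0 members were called in either direction. No filter on low counts gave 1 higher (Slc7a11, adjusted p = 0.0499), DESeq2 3 higher and 3 lower, and the title date as a covariate 3 higher and 4 lower. Both other scalings, limma-voom, the older fit, the fits without 1 library and the dated libraries alone gave 0. Over all genes the 30 higher and 0 lower calls became 55 and 2 without the filter, 430 and 218 with DESeq2, 438 and 271 with the title date, and 160 and 67 among the dated libraries. There were 18 higher with the older fit and 0 with limma-voom, where unadjusted p was under 0.05 for 1061 higher and 687 lower. Leaving out 1 library gave 0 to 64 higher and 0 to 2 lower calls over all genes. A replicate block gave 1 member higher and 1 lower (Slc7a11, adjusted p = 0.0368, and Mgst1, adjusted p = 0.0299), with 254 higher and 100 lower over all genes. The replicate numbers are not known to pair the samples. Deviations of same-numbered libraries from their group means correlated at -0.19, 0.47 and 0.67, and ko replicate 1 correlated best with wt replicate 2 (0.51). Deviations from a mean of 3 libraries depend on one another, so these values cannot decide whether the samples were paired. Signs turned for Gclm (-0.066) and Tkt (-0.051) among the dated libraries and for Sod2 (-0.00325) with DESeq2. In 35 of 47 members the sign held in all 15 alternatives. Leaving out 1 library turned the sign of Gclc (-0.22 to 0.18), Gclm (-0.29 to 0.31), Gsr (-0.14 to 0.47), Gstm2 (-0.76 to 0.053), Gstp1 (-0.80 to 0.13), Sod2 (-0.059 to 0.059), G6pdx (-0.28 to 0.13), Pgd (-0.34 to 0.022), Tkt (-0.032 to 0.076), Nqo1 (-0.44 to 0.22), Ephx1 (-1.49 to 0.032) and Ftl1 (-0.024 to 0.70). Without 1 library Slc7a11 ran from 1.52 to 2.09, Akr1b8 from 1.95 to 3.03, Gsta4 from 1.65 to 2.65 and Cat from -1.501 to -0.86. The 5 members with few counts could not be tested at this depth, and the causes of these changes were not tested.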
